A study of Mus musculus with 29 samples.

Results

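The H3K4me1 response to lipopolysaccharide (LPS) under flavopiridol was described as the difference between 2 peak lists of RAW264.7 cells, flavopiridol followed by LPS for 4 h and flavopiridol without LPS. Intervals on chromosomes 1 to 19 and X counted as shared from 1 bp of overlap. A gained interval is a peak of the flavopiridol then LPS 4 h list with no overlap in the flavopiridol list, a lost interval is a flavopiridol peak with no overlap in the flavopiridol then LPS 4 h list, and the rest were kept. There were 6825 gained intervals among 61841 peaks (11.0%, 95% Wilson interval 10.8 to 11.3%) and 14636 lost intervals among 67041 peaks (21.8%, 21.5 to 22.1%).

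RAW264.7 is a mouse macrophage-like line transformed by Abelson murine leukemia virus. The study immunoprecipitated 7 histone marks and PU.1 and sequenced the DNA, and 26 of its 29 samples have a peak list here. The groups used for H3K4me1 were flavopiridol for 1 h then LPS at 100 ng/ml for 4 h, flavopiridol for 1 h without LPS, LPS at 100 ng/ml for 4 h without the drug, LPS for 1 h without the drug, and untreated cells. H3K27ac, H3K27me3, H3K4me3, H3K36me3 and H3K79me2 lists come from cells without the drug, H3K36me2 lists from cells with and without it, and the PU.1 list from untreated cells. Each mark and condition has 1 library, so no difference between conditions could be tested, no p-value was computed, and the Wilson intervals cover counting error only. The labels do not say how long the cells given flavopiridol without LPS were kept after the drug, so an effect of LPS and an effect of time under the drug cannot be told apart.

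H3K4me1 is the monomethyl mark of enhancers, the distal DNA elements that raise transcription of their target genes, and it also flanks promoters. H3K27ac is added to enhancers and promoters in use, H3K27me3 is the repressive mark of Polycomb complexes, and PU.1 is the transcription factor that opens most macrophage enhancers and favours their H3K4 monomethylation. LPS acts through Toll-like receptor 4 and brings NF-kB, AP-1 and interferon regulatory factors to these elements, some of which gain H3K4me1 only after the stimulus. Flavopiridol inhibits cyclin-dependent kinases, among them CDK9 of P-TEFb, and so blocks the release of paused RNA polymerase II into elongation.

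The flavopiridol lists stood apart from the others before any comparison. Peaks with a deposited −log10 q of at least 5 were 4.02% of the flavopiridol then LPS 4 h list and 12.8% of the flavopiridol list, against 53.0% of the LPS 4 h list and 54.4% of the untreated list. The covered length was 117.2 Mb for flavopiridol then LPS 4 h and 143.7 Mb for flavopiridol, against 200.4 Mb for LPS 4 h and 192.1 Mb for untreated cells. Median peak widths were 1224 bp for flavopiridol then LPS 4 h, 1340 bp for flavopiridol, 1615 bp for LPS 4 h and 1726 bp for untreated cells. Read numbers, and with them the depth of each library, were not given. The part of depth or enrichment in the gained and lost intervals was not tested. Fold enrichments of the same peak agreed little between lists, with a Spearman rho across 46725 pairs of matched peaks of 0.0587 between the lists with the drug, against 0.784 for the width. For the −log10 q the rho was 0.0891. Results below therefore rest on the intervals, except that median fold enrichments of PU.1 peaks are given within the PU.1 list. Where a threshold on −log10 q is tried, which peaks it keeps is uncertain for the same reason.

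**Figure D1:**
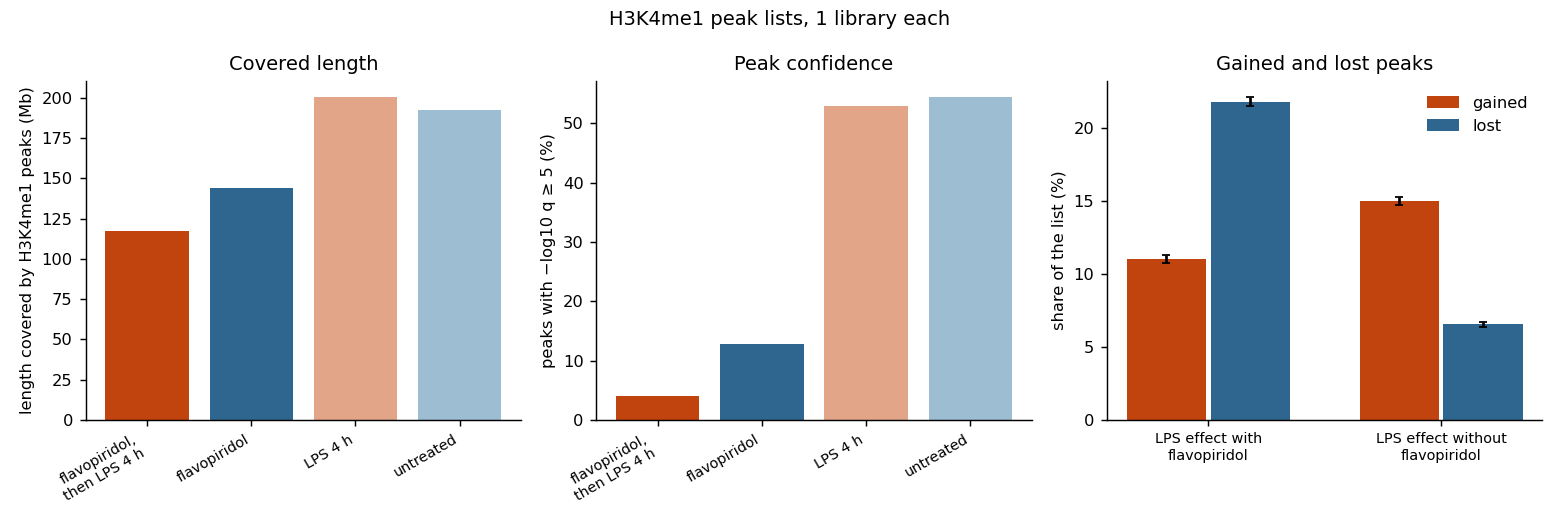
H3K4me1 peak lists of 1 library each: covered length in Mb (left), share of peaks with a deposited −log10 q of at least 5 (middle), and shares of gained and lost peaks for LPS 4 h with and without flavopiridol, with 95% Wilson intervals (right). Lost peaks (21.8%) outnumber gained peaks (11.0%) with flavopiridol, and gained peaks (15.0%) outnumber lost peaks (6.55%) without it.

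With flavopiridol, the H3K4me1 territory was smaller after LPS for 4 h, and without the drug it was larger. After LPS for 1 h without the drug it was smaller as well, at 176.3 Mb against 192.1 Mb in untreated cells. Under the drug, the number of peaks dropped by 5200 after LPS, and without the drug the LPS 4 h list held 7670 peaks more than the untreated list. Gains and losses without the drug were 11004 of 73217 LPS 4 h peaks (15.0%) and 4292 of 65547 untreated peaks (6.55%). LPS for 1 h without the drug left a balance closer to that under the drug, with 7.27% gained and 10.7% lost. Flavopiridol itself, set against untreated cells, gave 14.2% gained and 20.9% lost peaks, and flavopiridol then LPS 4 h, set against LPS 4 h, gave 11.4% gained and 33.9% lost peaks. Each of these shares 1 flavopiridol list with the comparison described here, so they are not independent of it. Over all comparisons of H3K4me1 and H3K36me2 lists made here, the gained or lost share ran from 6.01 to 33.9%, and the shares for LPS under the drug lie within that range. When each list was held to the same number of its widest peaks, 8416 peaks were gained and 11121 were lost under the drug.

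Most of the length that disappeared lay at peaks that were kept. Of the 42.9 Mb covered by the flavopiridol list alone, 31.8 Mb lay at kept peaks and 11.1 Mb in lost intervals. Of the 16.4 Mb covered by the flavopiridol then LPS 4 h list alone, 11.9 Mb lay at kept peaks and 4.43 Mb in gained intervals. The 100.8 Mb that both covered were 86.0% of the flavopiridol then LPS 4 h list and 70.2% of the flavopiridol list. Over the 46725 kept peaks with a single partner in each list, the median width was 1305 bp after flavopiridol then LPS 4 h and 1576 bp after flavopiridol. The median log2 width ratio was −0.18, with quartiles of −0.58 and 0.09, and 67.5% of these peaks were narrower after LPS. A further 3435 flavopiridol peaks (5.12%) were split into several peaks after LPS, and 1231 peaks after LPS (1.99%) joined several flavopiridol peaks. Of untreated peaks, 4.26% were split at LPS 4 h, 4.75% at LPS 1 h and 9.26% after flavopiridol. Without the drug, 54763 kept peaks with a single partner in each list had a median log2 width ratio of 0.01, and 48.2% were narrower at LPS 4 h than in untreated cells. Other comparisons also showed narrower peaks. The median log2 width ratio was −0.06 for LPS 1 h against untreated cells (61.8% narrower) and −0.31 for flavopiridol against untreated cells (74.3% narrower), so narrowing was not limited to LPS under the drug.

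Gained and lost intervals were narrow. Their median widths were 514 bp for gained and 593 bp for lost intervals, against 1369 bp for kept peaks of the flavopiridol then LPS 4 h list and 1693 bp for kept peaks of the flavopiridol list. The widest gained interval measured 3869 bp and the widest lost interval 8038 bp. Among peaks under 500 bp, 34.8% of the flavopiridol then LPS 4 h list were gained and 63.8% of the flavopiridol list were lost. Among peaks of 2000 bp or more, the shares were 0.399% gained (74 peaks) and 2.19% lost (502 peaks). A wide peak counts as kept from 1 bp of overlap, so these low shares do not show that its length was kept. With both lists limited to peaks of at least 1000 bp, 10.9% were gained and 25.3% lost. Without the drug, the shares among peaks of 2000 bp or more were 1.72% gained and 0.306% lost, so the balance of gains and losses differed with and without the drug in the widest class as well.

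The gained intervals were less often H3K4me1 regions of drug-free cells than the lost intervals were. A peak of the LPS 4 h list overlapped 3372 gained intervals (49.4%, 48.2 to 50.6%), and a peak of the untreated list overlapped 2621 (38.4%). For lost intervals, the LPS 4 h list overlapped 10376 (70.9%) and the untreated list 9745 (66.6%, 65.8 to 67.3%). Gained intervals fell into 2357 (34.5%) present in both drug-free lists, 1015 (14.9%) in LPS 4 h only, 264 (3.87%) in untreated only and 3189 (46.7%) in neither. Lost intervals fell into 9020 (61.6%) present in both, 1356 (9.26%) in LPS 4 h only, 725 (4.95%) in untreated only and 3535 (24.2%) in neither. Of kept peaks, 89.8% of either list were in both drug-free lists. The LPS 1 h list held 116 of the gained intervals that neither other list had, which left 3073 (45.0%) in no drug-free list.

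**Figure D2:**
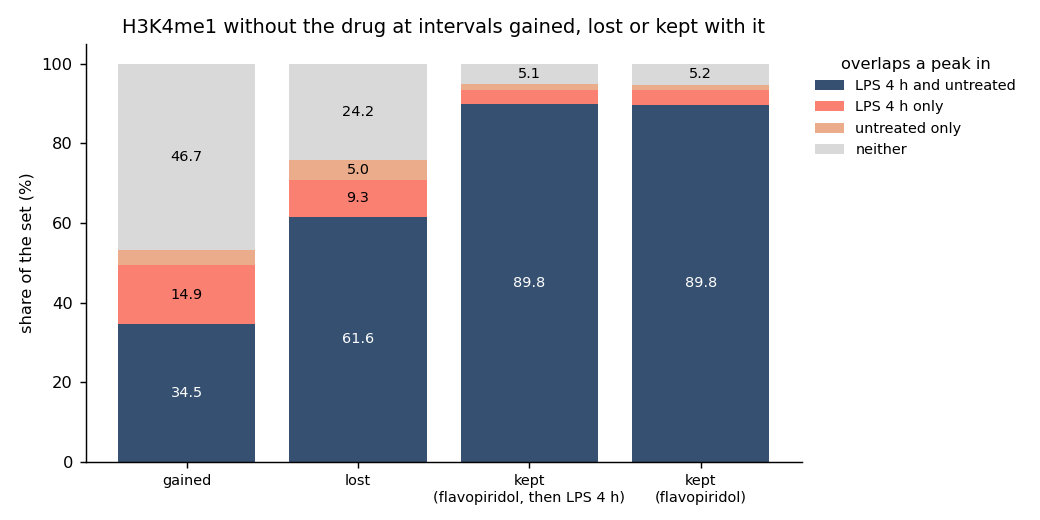
Share (%) of gained, lost and kept H3K4me1 intervals under flavopiridol that overlap a peak of the drug-free LPS 4 h list, the untreated list, both or neither. Of gained intervals 46.7% are in neither list, of lost intervals 24.2%, and of kept peaks 5.10% (flavopiridol then LPS 4 h) and 5.19% (flavopiridol).

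Gained and lost intervals overlapped the regions that changed with LPS in drug-free cells more often than kept peaks did, in both directions. Of the 6825 gained intervals, 885 (13.0%) overlapped a region gained without the drug and 211 (3.09%) a region lost without it. Of kept peaks of the flavopiridol then LPS 4 h list, 3.44% overlapped a region gained without the drug and 1.33% a region lost without it. Of the 14636 lost intervals, 1210 (8.27%) overlapped a region gained without the drug and 614 (4.20%) a region lost without it, against 3.64% and 1.46% of kept flavopiridol peaks. Most gained and lost intervals met no region that changed without the drug. The regions of all these sets are narrower than kept peaks, and the part of width in this was not tested. The 2 LPS comparisons share no H3K4me1 library, but the control libraries used to call the peaks are not named and may be shared.

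Regions that gained H3K4me1 with LPS in drug-free cells, the class that would include enhancers first marked after the stimulus, were set against both flavopiridol lists. Over the whole LPS 4 h list, 24807 of 73217 peaks (33.9%) had no peak after flavopiridol then LPS 4 h, so most had one. The regions gained without the drug were narrower, with 75.5% under 1000 bp against 30.3% of all LPS 4 h peaks. The part of width in their shares was not tested. Of the 11004 regions, 2764 (25.1%, 24.3 to 25.9%) had a peak after flavopiridol then LPS 4 h and 3117 (28.3%, 27.5 to 29.2%) had a peak after flavopiridol without LPS. Only the LPS list had a peak at 912 (8.29%), only the flavopiridol list at 1265 (11.5%), both at 1852 (16.8%) and neither at 6975 (63.4%). In the lists as deposited, these regions were thus present less often with LPS than without it under the drug. The flavopiridol then LPS 4 h list is the shorter of the 2, and the order did not hold with an equal number of peaks per list. Of 6479 regions, the shares were then 30.9% (29.8 to 32.0%) after flavopiridol then LPS 4 h and 29.6% (28.5 to 30.8%) after flavopiridol. These Wilson intervals overlap. Under each other setting tried, the share stayed lower after flavopiridol then LPS 4 h. Taking the flavopiridol share under the alternatives was decided after the data were seen. The 951 regions that also gained H3K27ac at LPS 4 h had a peak in 22.3% after flavopiridol then LPS 4 h and in 23.1% after flavopiridol, and 69.9% were in neither list. Where PU.1 was bound in untreated cells (2498 regions), the shares were 33.5% after flavopiridol then LPS 4 h and 38.4% after flavopiridol. Where H3K27me3 lay at LPS 4 h (4025 regions), they were 37.1% after flavopiridol then LPS 4 h and 39.9% after flavopiridol. For the 523 regions of 2000 bp or more they were 34.6% after flavopiridol then LPS 4 h and 37.7% after flavopiridol. Of the 3086 regions that already had a peak at LPS 1 h, 37.4% had one after flavopiridol then LPS 4 h and 44.2% after flavopiridol.

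Regions that lost H3K4me1 with LPS in drug-free cells behaved in the same order but with a wider gap. Of these 4292 regions, 21.9% had a peak after flavopiridol then LPS 4 h and 32.2% after flavopiridol, and 62.9% were in neither list. Among the 219 with H3K27ac in untreated cells, the shares were 49.3% after flavopiridol then LPS 4 h and 63.0% after flavopiridol. Over the whole untreated list, 13728 of 65547 peaks (20.9%) had no peak after flavopiridol, so most had one.

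Active enhancer chromatin was uncommon at the gained and lost intervals. H3K27ac at LPS 4 h without the drug overlapped 9.26% of gained intervals (8.60 to 9.97%), 18.4% of lost intervals and 57.6% of kept peaks of the flavopiridol then LPS 4 h list. In untreated cells, H3K27ac overlapped 5.76% of gained intervals, 14.1% of lost intervals (13.5 to 14.7%) and 56.0% of kept flavopiridol peaks. With every list held to a −log10 q of at least 5, H3K27ac at LPS 4 h overlapped 35.0% of gained intervals (33.0 to 37.1%). H3K27ac in untreated cells then overlapped 33.8% of lost intervals (32.8 to 34.9%). These Wilson intervals overlap, so a lower share in gained intervals was not seen, with the doubt about that threshold given above. The H3K27ac lists are of different conditions here, and gained and lost intervals were not compared within the same condition at this threshold. H3K27ac that itself appeared with LPS, a sign of enhancers switched on by the stimulus, overlapped 287 gained intervals (4.21%), 919 lost intervals (6.28%) and 7.06% of kept peaks of the flavopiridol then LPS 4 h list. H3K27ac that disappeared with LPS overlapped 79 gained intervals (1.16%), 369 lost intervals (2.52%) and 5.62% of the same kept peaks. H3K4me3, the mark of promoters, lay at LPS 4 h at 6.53% of gained intervals, 10.4% of lost intervals and 38.5% of those kept peaks. H3K4me3 was lacking at LPS 4 h at 93.5% of gained intervals and in untreated cells at 89.9% of lost intervals. Peaks without H3K4me3 are called distal below in that sense only, since no distance to a promoter was measured.

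Repressive chromatin was more frequent at gained than at lost intervals. H3K27me3 at LPS 4 h without the drug overlapped 2730 gained intervals (40.0%, 38.8 to 41.2%), 23.6% of lost intervals and 19.1% of kept peaks of the flavopiridol then LPS 4 h list. In untreated cells, it overlapped 35.2% of gained intervals, 22.9% of lost intervals (22.2 to 23.6%) and 20.2% of kept flavopiridol peaks. Both H3K27ac and H3K27me3 lay at LPS 4 h at 52 gained intervals (0.762%) and 94 lost intervals (0.642%). Neither lay at 3515 gained intervals (51.5%) and 8571 lost intervals (58.6%). The H3K27me3 lists hold many low-confidence peaks, with 11.7% at a −log10 q of at least 5 at LPS 4 h. When all lists were held to that threshold, H3K27me3 at LPS 4 h overlapped 2.59% of gained intervals (1.99 to 3.37%). H3K27me3 in untreated cells then overlapped 2.86% of lost intervals (2.52 to 3.24%), so the higher share in gained intervals was not seen. Since the −log10 q of matched peaks agreed little between lists, and 2485 peaks of the flavopiridol then LPS 4 h list and 8594 of the flavopiridol list were left, these values are no check on strong peaks.

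**Figure D3:**
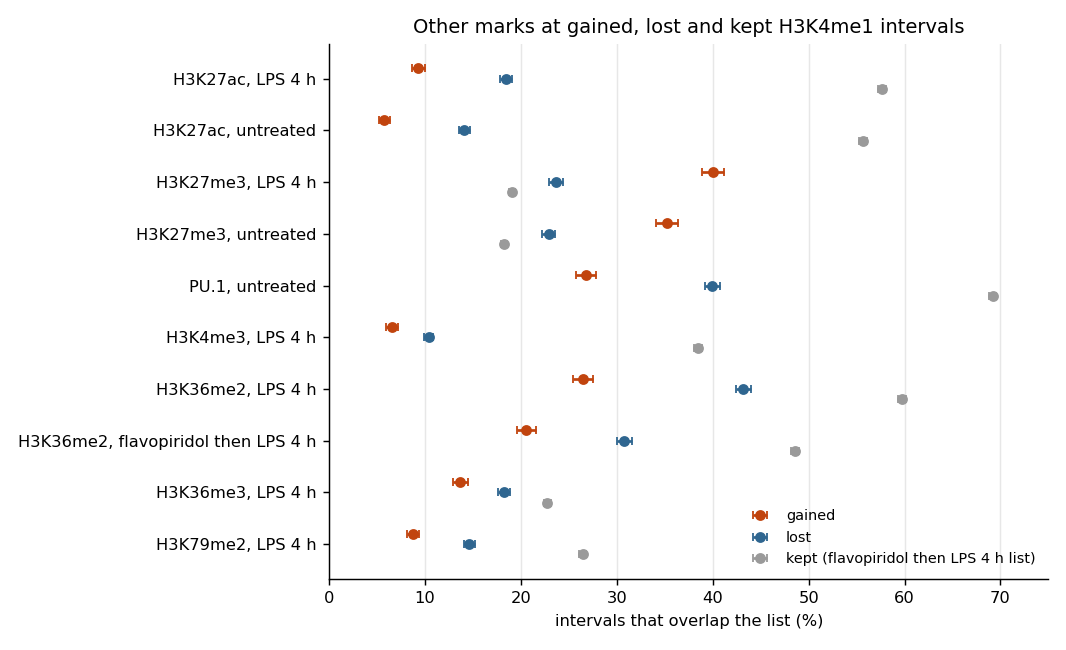
Share (%) of gained, lost and kept H3K4me1 intervals that overlap other lists, with 95% Wilson intervals that cover counting error only. For H3K27me3 the gained intervals lie highest (40.0% at LPS 4 h), and for each other list shown they lie below the lost intervals and the kept peaks.

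PU.1 peaks of untreated cells overlapped 26.8% of gained intervals (25.8 to 27.9%), 39.9% of lost intervals (39.2 to 40.7%) and 69.2% of kept peaks of the flavopiridol then LPS 4 h list. Gained intervals held 1866 PU.1 peaks (420.8 per Mb) and lost intervals 6101 (548.8 per Mb). Kept peaks held 499.2 per Mb in the flavopiridol then LPS 4 h list and 446.7 per Mb in the flavopiridol list. These counts take every PU.1 peak that overlaps by 1 bp, which raises the value of narrow intervals. By length, PU.1 peaks covered 12.7% of gained and 19.5% of lost intervals. They covered 27.2% of the kept flavopiridol then LPS 4 h length and 25.1% of the kept flavopiridol length. The median deposited fold enrichment of those PU.1 peaks was 6.17 in gained and 6.56 in lost intervals. It was 7.44 in kept peaks of the flavopiridol then LPS 4 h list and 6.11 over all 99565 PU.1 peaks. With a single PU.1 list, these fold values could not be compared with another list. Where several lines gave the same PU.1 interval, only the value of the first was kept. H3K27ac at LPS 4 h overlapped 15.8% of the PU.1 peaks in gained intervals and 25.0% of those in lost intervals, against 67.7% in the kept peaks and 45.8% of all PU.1 peaks.

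A narrow interval has less length to overlap another peak, so the shares were also given by width. The 4 width classes were under 500 bp, from 500 to under 1000 bp, from 1000 to under 2000 bp, and 2000 bp or more. H3K27ac at LPS 4 h overlapped 7.47, 11.0, 10.1 and 16.2% of gained intervals in these classes, from narrow to wide, against 29.5, 36.9, 56.4 and 83.4% of kept peaks of the flavopiridol then LPS 4 h list. H3K27ac in untreated cells overlapped 8.49, 13.7, 21.6 and 41.6% of lost intervals, against 15.3, 25.8, 48.3 and 81.8% of kept flavopiridol peaks. Gained and lost intervals thus had H3K27ac less often than kept peaks of their own list at every width. H3K27me3 at LPS 4 h overlapped 37.3, 40.2, 46.7 and 59.5% of gained intervals in those classes, against 19.6, 21.2, 20.4 and 16.2% of the kept peaks. In lost intervals H3K27me3 in untreated cells differed less from kept flavopiridol peaks, with 24.4, 21.8, 23.0 and 17.3% of lost intervals against 26.5, 23.3, 21.5 and 16.9% of those kept peaks. PU.1 overlapped 25.6, 28.3, 26.8 and 29.7% of gained intervals and 33.8, 42.0, 44.5 and 61.4% of lost intervals, so the 2 sets differed more among wide intervals than among narrow ones. Kept flavopiridol then LPS 4 h peaks overlapped PU.1 in 45.4, 55.6, 68.6 and 87.6%. Kept flavopiridol peaks did so in 40.1, 53.1, 68.2 and 87.5%, more often than lost intervals at every width.

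**Figure D4:**
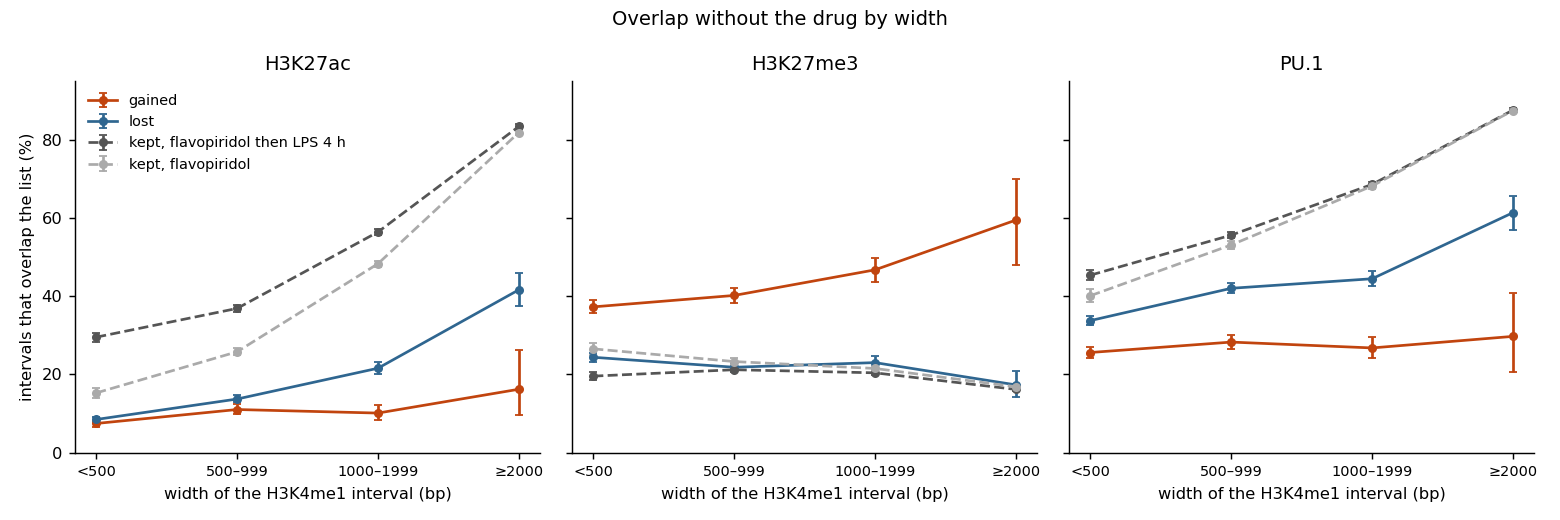
Share (%) of H3K4me1 intervals that overlap drug-free H3K27ac, H3K27me3 or PU.1 peaks, by width of the interval in bp, with 95% Wilson intervals; H3K27ac and H3K27me3 are of LPS 4 h for gained intervals and kept peaks of the flavopiridol then LPS 4 h list, and of untreated cells for lost intervals and kept flavopiridol peaks. H3K27ac reaches 16.2% of gained intervals, 41.6% of lost intervals, 83.4% of kept peaks of the flavopiridol then LPS 4 h list and 81.8% of kept flavopiridol peaks in the widest class, and H3K27me3 reaches 59.5% of gained intervals.

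Read the other way, the share of peaks that changed differed between chromatin classes. Of flavopiridol then LPS 4 h peaks, 2.06% of those with H3K4me3 were gained, 1.62% of distal peaks with H3K27ac and PU.1, 9.38% of distal peaks with H3K27ac and no PU.1, and 28.3% of distal peaks with H3K27me3 and no H3K27ac. Of flavopiridol peaks, classed by the marks of untreated cells, 6.79% of those with H3K4me3 were lost, 6.55% of distal peaks with H3K27ac and PU.1, 18.9% of distal peaks with H3K27ac and no PU.1, and 32.8% of distal peaks with H3K27me3 and no H3K27ac. Distal peaks with neither mark were gained in 10.8% with PU.1 and 29.1% without PU.1, and lost in 30.3% with PU.1 and 48.5% without PU.1. Distal peaks with PU.1 and H3K27ac, the typical chromatin of active macrophage enhancers, were among the most stable classes. Their median width was also larger, 1636.5 bp in the flavopiridol then LPS 4 h list against 652 bp for distal peaks with neither mark and no PU.1, and the part of width in this order was not tested.

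The marks separated by where H3K4me1 lay in drug-free cells. Gained intervals absent from both drug-free lists overlapped H3K27me3 at LPS 4 h in 56.9%, H3K27ac in 1.66% and PU.1 in 15.7%. Gained intervals present in both drug-free lists overlapped H3K27me3 in 14.1%, H3K27ac in 19.9% and PU.1 in 41.9%. The 1015 gained intervals found without the drug at LPS 4 h only lay between these, with H3K27me3 in 48.0%, H3K27ac in 9.56% and PU.1 in 24.5%. Lost intervals showed the same separation, with H3K27me3 of untreated cells in 44.8% of those absent from both lists and in 11.4% of those present in both. H3K27ac in untreated cells overlapped 1.90% of lost intervals absent from both lists and 21.2% of those present in both.

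The deposited segmentation with 27 states, in steps of 200 bp, was read for the untreated genome. State 19, 95.7% of whose length lay under H3K27me3, made up 26.1% of the gained length and 12.8% of the lost length, against 4.59% of the kept flavopiridol then LPS 4 h length and 10.9% of the genome. State 27, nearly free of all marks, made up 35.6% of the gained length and 22.0% of the lost length, against 5.58% of that kept length and 68.8% of the genome. State 16, in which H3K4me1 covered 98.1% and H3K27ac 14.3% of the length, made up 8.36% of the gained and 16.7% of the lost length, against 16.8% of the kept flavopiridol then LPS 4 h length and 16.7% of the kept flavopiridol length. State 17, with H3K4me1 and H3K27ac over nearly all its length, made up 0.546% of the gained and 2.11% of the lost length, against 14.1% of the kept length.

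H3K36me2, a mark of intergenic and transcribed regions, is the other mark with flavopiridol lists. After flavopiridol then LPS 4 h it lay at 20.5% of gained and 30.8% of lost H3K4me1 intervals, and after flavopiridol at 22.7% of gained and 39.5% of lost ones. Kept H3K4me1 peaks had it more often, in 48.5% (flavopiridol then LPS 4 h list) and 50.0% (flavopiridol list) after flavopiridol then LPS 4 h, and in 55.5% and 56.9% of the same 2 lists after flavopiridol. H3K36me2 peaks were gained with LPS under the drug in 9.92% and lost in 29.3%, against 25.2% gained and 6.01% lost without the drug, so both marks had more losses than gains under flavopiridol. A lost H3K36me2 peak overlapped 590 lost H3K4me1 intervals (4.03%) and 103 gained ones (1.51%), against 7.88% of kept flavopiridol H3K4me1 peaks. Lost and gained intervals are narrower than kept peaks, and the part of width in this was not tested. The share with any H3K36me2 peak was lower with LPS in lost intervals (30.8 against 39.5%) and in kept flavopiridol peaks (50.0 against 56.9%).

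Gained and lost intervals mostly lay apart from peaks of the other list. The nearest flavopiridol peak lay at a median of 6079 bp from a gained interval, and within 1 kb for 433 of them (6.34%). The nearest flavopiridol then LPS 4 h peak lay at a median of 6046 bp from a lost interval, and within 1 kb for 445 of them (3.04%). For regions gained without the drug, the nearest untreated peak lay at a median of 7204.5 bp, and within 1 kb for 1.80%. Kept flavopiridol then LPS 4 h peaks lay at a median of 3873 bp from other peaks of their own list.

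The 8 widest gained and the 8 widest lost intervals are given by their mm9 positions, without gene names. The widest gained interval, chr14:58377143-58381011 (3869 bp), and the next, chr7:20106243-20110007 (3765 bp), lay wholly under H3K27me3 in LPS 4 h and untreated cells and had no H3K4me1 without the drug. The second lay 24 bp from a flavopiridol peak, so it adjoined H3K4me1 already present. H3K27me3 without drug-free H3K4me1 was also found at chr18:35879490-35882537 and chr4:128789110-128792107. At the last of these, H3K27me3 covered 100% at LPS 4 h but 56.9% in untreated cells. The other 4 of the widest gained intervals had H3K4me1 over 72.6 to 100% of their length at LPS 4 h and over 51.1 to 100% in untreated cells, with no H3K27me3. They were chr19:16382502-16385689, chr4:119486299-119489427, chr15:63819224-63822193 and chr6:98969544-98972426, the last of which lay 26 bp from a flavopiridol peak.

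The widest lost interval, chr11:3191058-3199095 (8038 bp), had H3K4me1 over 0% of its length at LPS 4 h and 79.1% in untreated cells, and H3K27ac over 53.1% at LPS 4 h and 74.8% in untreated cells, with 3 PU.1 peaks. Within this interval, H3K4me1 peaks were therefore absent after LPS for 4 h with and without the drug. At LPS 1 h without the drug they covered 75.8% of it. Peaks of H3K36me3 also covered 75.7% of it in untreated cells and 0% at LPS 4 h, while H3K79me2 covered 100% in both. The opposite H3K4me1 order held at chr10:77489893-77495152 (5260 bp), where H3K4me1 covered 78.0% at LPS 4 h and 0% in untreated cells. There, H3K27ac covered 76.4% at LPS 4 h and 0% in untreated cells, and H3K27me3 covered 51.9% at LPS 4 h and 100% in untreated cells. Within that interval, H3K4me1 and H3K27ac were present at LPS 4 h and absent in untreated cells, and the H3K4me1 peak was lost with LPS under the drug. The intervals chr18:10735133-10739934 and chr9:47368838-47373533 lay wholly under H3K4me1 in LPS 4 h and untreated cells. The remaining 4, chr9:72380999-72387134, chr6:71968177-71973462, chr11:80568693-80573805 and chr3:87161625-87166660, had H3K4me1 over 27.9 to 88.3% at LPS 4 h and over 45.2 to 98.1% in untreated cells.

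**Figure D5:**
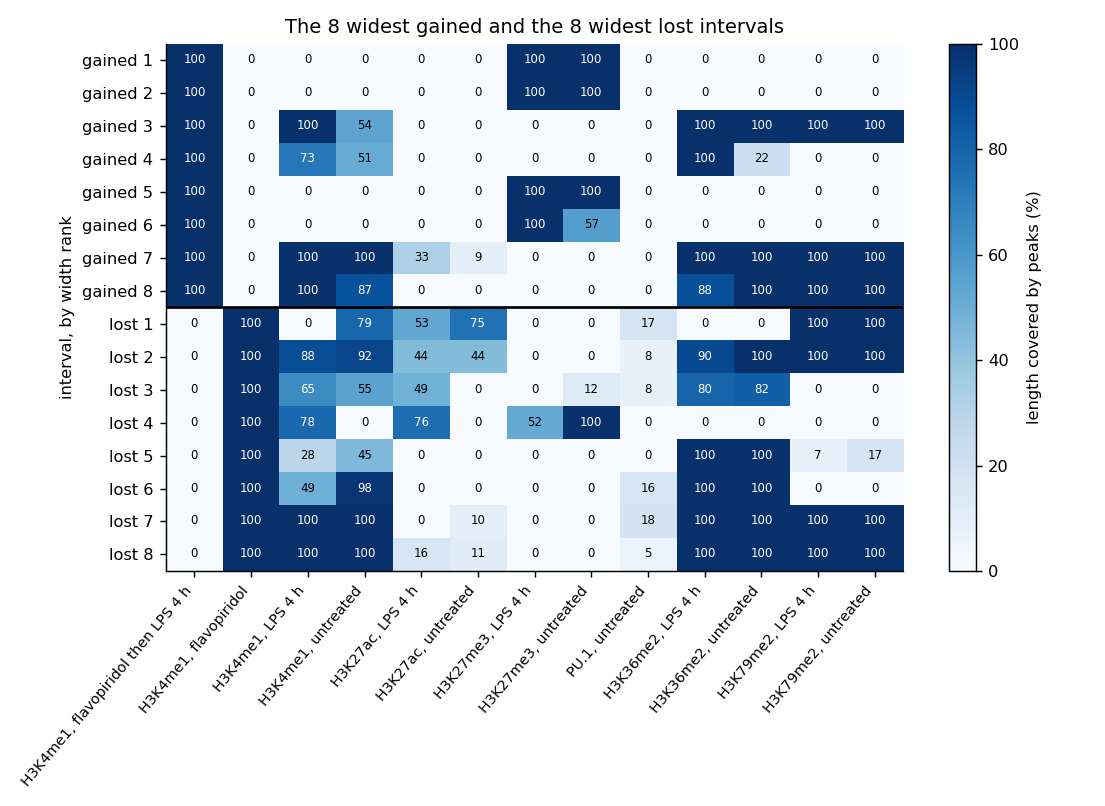
Length (%) of each of the 8 widest gained and 8 widest lost intervals that is covered by peaks of each list. Gained intervals 1, 2, 5 and 6 are covered by H3K27me3 and have no H3K4me1 without the drug; lost interval 4 has H3K4me1 and H3K27ac at LPS 4 h and neither in untreated cells.

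The 4 widest gained intervals that overlapped an LPS 4 h peak and no untreated peak were also examined. Such an interval can touch an LPS 4 h peak that overlaps an untreated peak elsewhere. Of these 4, 3 lay under H3K27me3 at LPS 4 h over 51.1 to 100% of their length. The same 3 overlapped the LPS 4 h peak over 5.31 to 23.8% of their length. They were chr11:97424051-97426630, chr17:46424506-46426976 and chr2:26891765-26894116. At the other, chr15:25366624-25369010 (2387 bp), H3K4me1 and H3K27ac covered 100% at LPS 4 h and 0% in untreated cells, and H3K27me3 covered 0% at LPS 4 h and 28.2% in untreated cells. Within this interval, H3K4me1 was thus present with LPS for 4 h and absent without LPS, with and without flavopiridol. H3K27ac had the same order without the drug, where it was measured. The 3 widest gained intervals that overlapped H3K27ac at LPS 4 h were chr15:63819224-63822193 named above, chr10:62346319-62349061 and chr11:85789190-85791842. H3K27ac covered 32.6, 39.2 and 24.2% of them at LPS 4 h, in that order, and 9.46, 0 and 0% in untreated cells. At the last 2, H3K27me3 covered 54.2 and 100% at LPS 4 h, so these intervals overlapped both marks.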

How the data were processed

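Chromatin immunoprecipitation and sequencing was done with 1 library per mark and condition. Per the submitters' processing notes, Bowtie 1.0.1 aligned the reads to mm9 and MACS2 called the peaks. Not given in the sources used here were the version and settings of MACS2, the control library and the read numbers, so depth is unknown. The authors deposited for each peak a fold enrichment, a −log10 p and a −log10 q, and a score, with the 27-state segmentations. Fold values are described for PU.1 only. Gained, lost and kept peaks were defined by an overlap of at least 1 bp, on 99565 distinct PU.1 intervals and on the other lists as deposited. Shares have 95% Wilson intervals. No test was possible. Overlap counts were checked on simulated intervals. Python 3.11.15, numpy 2.4.6, pandas 2.3.3 and scipy 1.17.1 were used. Members, lists and alternatives were chosen with earlier results of these data known. Named regions are the widest, with 1-based mm9 positions. No mm9 genome or annotation was used here, so the planned gene lists and motif searches were not run.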

Additional observations from a re-analysis of the deposited data

Results flagged for a closer look

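Several measures had opposite signs for LPS with and without flavopiridol, and with 1 library per condition none of these differences was tested. The H3K4me1 covered length, LPS minus no LPS, was −26.5 Mb with flavopiridol and 8.25 Mb without it. The number of H3K4me1 peaks, LPS minus no LPS, was −5200 with flavopiridol and 7670 without it. Gained minus lost H3K4me1 peaks came to −7811 with flavopiridol and 6712 without it. The median log2 width ratio of kept H3K4me1 peaks with a single partner in each list was −0.18 with flavopiridol and 0.0091 without it. The value without the drug is close to no change, with 48.2% of these peaks narrower. LPS for 1 h without the drug gave −15.8 Mb of covered length and a median log2 width ratio of −0.06, but 43 peaks more.

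H3K36me2 showed opposite signs as well. Its covered length, LPS minus no LPS, was −74.6 Mb with flavopiridol and 67.7 Mb without it, and gained minus lost peaks came to −10894 with flavopiridol and 8718 without it. The number of H3K36me2 peaks went the other way, at 3522 with flavopiridol and −4171 without it. In both marks the flavopiridol then LPS 4 h list held fewer confident peaks, with a −log10 q from 5 upward in 4.02% of H3K4me1 and 0.0390% of H3K36me2 peaks, against 12.8% and 0.197% after flavopiridol. The part of depth or enrichment in these differences was not tested.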

How the results depend on the processing

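Merging peaks within 1000 bp changed no value and is not counted here. Over the other 5 settings, 45 of 60 values moved. A count was taken as moved beyond a factor of 1.5, and a share outside its 95% Wilson interval, which is narrow. Fewer gained than lost intervals, and less PU.1 in gained than in lost intervals, held in 5 of these 5. In this section, H3K27ac and H3K27me3 are those of LPS 4 h for gained intervals and those of untreated cells for lost intervals. Less H3K27ac and more H3K27me3 in gained than in lost intervals held in 4 of 5. Neither held at a −log10 q of at least 5, where the Wilson intervals of the gained and lost shares overlapped. The cause of each move was not tested.

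At a −log10 q of at least 5, 2045 of 2485 peaks (82.3%) were gained and 8157 of 8594 (94.9%) lost, so few peaks of either list counted as kept. Gained intervals then overlapped the LPS 4 h list in 47.0%, H3K27ac in 35.0%, H3K27me3 in 2.59% and PU.1 in 52.8%. Lost intervals overlapped the untreated list in 49.0%, H3K27ac in 33.8%, H3K27me3 in 2.86% and PU.1 in 56.1%. Of regions gained without the drug, 2.51% were in the flavopiridol then LPS 4 h list, 2.08% in its gained intervals and 8.93% in the flavopiridol list.

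With at least 50% of an interval covered, 10679 intervals were gained and 23338 lost. Gained intervals overlapped H3K27ac in 11.2%, H3K27me3 in 32.5% and PU.1 in 13.5%. Lost intervals overlapped the untreated list in 68.6%, H3K27ac in 15.6%, H3K27me3 in 17.7% and PU.1 in 17.6%. Of regions gained without the drug, 18.9% were in the flavopiridol then LPS 4 h list, 6.72% in its gained intervals and 22.6% in the flavopiridol list.

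With peaks of at least 1000 bp, 3947 intervals were gained. Gained intervals overlapped the LPS 4 h list in 57.3%, H3K27ac in 25.7%, H3K27me3 in 37.6% and PU.1 in 46.4%. Lost intervals overlapped the untreated list in 76.9%, H3K27ac in 38.1%, H3K27me3 in 21.2% and PU.1 in 60.5%. Of regions gained without the drug, 17.9% were in the flavopiridol then LPS 4 h list, 5.71% in its gained intervals and 21.7% in the flavopiridol list.

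With the widest peaks of each list in equal numbers, gained intervals overlapped the LPS 4 h list in 41.4%, H3K27ac in 10.7%, H3K27me3 in 38.5% and PU.1 in 29.4%. Lost intervals overlapped the untreated list in 67.5%, H3K27ac in 16.0%, H3K27me3 in 22.1% and PU.1 in 42.4%. Of regions gained without the drug, 30.9% were in the flavopiridol then LPS 4 h list, 10.7% in its gained intervals and 29.6% in the flavopiridol list. With no peak allowed within 1000 bp, 26.2% of regions gained without the drug were in the flavopiridol then LPS 4 h list and 29.5% in the flavopiridol list.

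No paired analysis was possible because each condition has 1 library. Depth is unknown, and peaks of low confidence under flavopiridol limit what an absent peak means. H3K27ac, H3K27me3 and PU.1 were not measured with the drug.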

Other observations

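The X chromosome lost a larger share of its H3K4me1 peaks under flavopiridol than any autosome. Of 1253 flavopiridol peaks on X, 451 were lost after flavopiridol then LPS 4 h (36.0%, 33.4 to 38.7%), against 19.1% on chromosome 11 to 25.1% on chromosome 13 among autosomes. Gained peaks were 13.7% on X, against 9.77% on chromosome 15 to 13.5% on chromosome 18. The larger share of losses on X held among peaks of 1000 bp or more, with 19.3% lost on X and 7.35% on autosomes. Without the drug, LPS for 4 h was accompanied by the loss of 5.83% of untreated peaks on X and 6.57% on autosomes. Flavopiridol without LPS lacked 39.4% of untreated peaks on X and 20.5% on autosomes. X peaks of the flavopiridol list overlapped H3K27me3 of untreated cells in 2.00% and H3K27ac in 60.9%, against 21.1% and 46.6% on autosomes. The median width of X peaks in that list was 1098 bp, against 1345 bp on autosomes. X held 1681 peaks in untreated cells, 1253 after flavopiridol and 985 after flavopiridol then LPS 4 h. Read depth on X is unknown, and its part in these losses was not tested. With 1 library per condition this difference between chromosomes was not tested over samples.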
